A study of Mus musculus with 4 samples.

Results

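The genes described here encode the death effectors BAX and BAK and the BH3-only proteins that switch them on. They are the 9 mouse genes Bax, Bak1, Bid, Bad, Bik, Bmf, Pmaip1, Bbc3 and Bcl2l11, taken by gene symbol from a deposited table of 55339 rows. All 9 were listed, and all 9 passed the filter on low values (a log2 value of at least 0 in at least 2 libraries), among 17303 genes that did. Their expression was compared in leukemia cells from the bone marrow of C57BL/6 mice, with 2 libraries of Ybx1 knockout cells (genotype YBX1-/-, replicates 1 and 3, column names cKO) and 2 libraries of WT cells (replicates 4 and 5). The labels used here name neither the oncogene that made the leukemia, nor the way Ybx1 was deleted, nor the age of the mice, and nothing in them says that the replicates are separate animals. The p-values therefore measure only the spread between these libraries, which may be technical. The sample titles also carry a tag, RNA-seq1 for knockout replicate 1 and both WT libraries and RNA-seq2 for knockout replicate 3, whose meaning they do not give. The spread of the knockout pair cannot be told apart from this tag.

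BAX and BAK permeabilize the outer mitochondrial membrane, which releases cytochrome c and starts caspase activation. BCL2, BCL-xL and MCL1 hold them in check, and BH3-only proteins either neutralize these guardians or activate BAX and BAK directly. In myeloid leukemia the balance between both sides sets how close a cell is to death, and drugs that mimic BH3-only proteins act on it. YBX1, an mRNA-binding protein with a cold-shock domain, was named after the Y-box, an inverted CCAAT element of promoters. By its title, the study asked how YBX1 bears on leukemia cell survival and the stability of mRNAs.

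The values are log2 expression per gene as the authors deposited them. No counts are given, so the depth behind each value is unknown and no interval that needs depth was computed. Ybx1 itself stood at 7.29 and 8.33 in knockout replicates 1 and 3, versus 19.70 in WT replicate 4 and 10.002 in WT replicate 5. The mature neutrophil markers lay lower in the knockout libraries for 5 of 8 genes and above WT for 0, with summed levels of log2 14.50 and 14.61 in knockout cells versus 22.06 and 16.40 in WT cells. Monocyte and macrophage markers lay below both WT libraries in 2 of 6 tested genes and above in 0, with summed levels of log2 12.33 and 12.48 in knockout cells versus 17.92 and 12.85 in WT cells. Of 9 progenitor and leukemia markers 4 lay below and 1 above, of 4 erythroid markers 1 below and 0 above, of 2 B cell markers 0 below and 1 above, and of 2 T and NK cell, 3 megakaryocyte and 2 stromal or endothelial markers 0 on either side. Of the T and NK cell list, Cd3e, Cd3g and Cd8a were listed at 0 in all 4 libraries. Cd3d was at 0.55 and 1.01 in knockout cells versus 2.59 and 0.54 in WT cells, and Nkg7 at 9.37 and 9.45 in knockout cells versus 19.38 and 8.41 in WT cells. Of the progenitor and leukemia list, Ptprc, Csf1r, Mpo, Elane, Hoxa9 and Meis1 were at 7.60 or above in each library. Kit was at 4.23 and 3.56 in knockout cells versus 4.55 and 5.35 in WT cells. Cd34 was at 3.41 and 2.18 in knockout cells versus 3.75 and 5.82 in WT cells. Itgam was at 8.03 and 7.22 in knockout cells versus 18.20 and 9.31 in WT cells. Fewer cells of a type and less RNA per cell cannot be told apart in such bulk samples, and the part of these markers in the differences below was not tested.

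WT replicate 4 did not resemble the other libraries. Over the tested genes its Pearson correlation with each of them was 0.69 to 0.71, against 0.93 to 0.96 among the other 3, given across genes, which are not independent replicates. In WT replicate 4, 3906 tested genes (22.6%) took a value from 5 up to 6, against 1238 to 1294 genes (7.15% to 7.48%) in each other library. Of the 9 genes described here, Bak1 and Bad lay in that range in WT replicate 4 and 0 of 9 did in any other library. WT replicate 4 also differed at the top. Of 1242 genes abundant by their median in the other libraries, 40.4% lay more than 3 log2 above that median in WT replicate 4. Another 47.3% lay more than a log2 unit below it. In each other library, read the same way, the shares were 0% above and 3.34% to 5.99% below. For this reason each difference is given against both WT libraries and against WT replicate 5 alone.

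Bak1, Bid, Bad and Pmaip1 lay above the WT pair in each knockout library, and Bcl2l11, the BIM gene, lay below it in each. None of the 9 differences passed limma's test. Limma called 0 of 17303 genes (0%) at a Benjamini-Hochberg adjusted p under 0.05, while 651 genes (3.76%) had an unadjusted p under 0.05, 0 of the 9 among them. Of the 9 genes, 4 had both knockout values above both WT values and 1 had both below, where the shares over all tested genes were 17.3% and 18.8%. Within the RNA-seq1 tag, knockout replicate 1 lay above both WT values for 5 of the 9 genes (Bbc3 beside those 4) and below for 2 (Bax and Bcl2l11), where the shares over all tested genes were 28.2% and 25.2%, and limma called 0 of the 9. The RNA-seq2 tag holds 1 knockout library and no WT library, so it gives no value of its own. The median difference of the 9 genes was 0.92 log2, knockout minus WT, beside a median of -0.09 over all tested genes. Both medians moved with the filter and with the WT library. Among genes with a log2 value of at least 5 in at least 2 libraries they were 1.16 over 7 of the 9 genes and 0.60 over all, and without WT replicate 5 they were 0.019 and -0.46. With so few libraries, an exact two-sided permutation test of a single gene cannot give a p below 0.333.

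Promoter windows are shown for Bak1, Bid and Bad, which lay higher in knockout, and for Bcl2l11, which lay lower. Each window runs from 250 bases before to 50 bases after a RefSeq transcription start (GRCm38.p6), 5′ to 3′ on the gene's strand, and the first window listed for the gene is printed. Capitals mark GC boxes (GGGCGG on either strand) and CCAAT boxes (CCAAT on either strand, read as ATTGG when inverted), which overlap nowhere in these windows.
Bak1, chr17:27028578-27028877, minus strand: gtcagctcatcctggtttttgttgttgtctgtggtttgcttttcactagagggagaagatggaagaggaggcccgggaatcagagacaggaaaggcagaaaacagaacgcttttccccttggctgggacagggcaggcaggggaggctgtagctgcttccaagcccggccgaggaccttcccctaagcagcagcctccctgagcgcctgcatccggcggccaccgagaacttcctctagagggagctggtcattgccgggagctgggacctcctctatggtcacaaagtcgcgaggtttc
Bid, chr6:120916775-120917074, minus strand: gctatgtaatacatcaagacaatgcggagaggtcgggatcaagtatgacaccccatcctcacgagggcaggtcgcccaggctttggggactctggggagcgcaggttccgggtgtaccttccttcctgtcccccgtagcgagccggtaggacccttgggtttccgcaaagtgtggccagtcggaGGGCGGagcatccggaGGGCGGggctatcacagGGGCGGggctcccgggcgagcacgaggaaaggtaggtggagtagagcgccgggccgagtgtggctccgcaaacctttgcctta
Bad, chr19:6941611-6941910, plus strand: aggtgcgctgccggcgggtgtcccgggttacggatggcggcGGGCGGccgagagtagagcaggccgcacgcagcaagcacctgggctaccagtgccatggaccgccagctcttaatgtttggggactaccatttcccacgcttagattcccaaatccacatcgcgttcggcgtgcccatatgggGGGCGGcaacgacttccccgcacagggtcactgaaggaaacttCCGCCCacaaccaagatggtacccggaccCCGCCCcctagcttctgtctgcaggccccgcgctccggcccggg
Bcl2l11, chr2:128125788-128126087, plus strand: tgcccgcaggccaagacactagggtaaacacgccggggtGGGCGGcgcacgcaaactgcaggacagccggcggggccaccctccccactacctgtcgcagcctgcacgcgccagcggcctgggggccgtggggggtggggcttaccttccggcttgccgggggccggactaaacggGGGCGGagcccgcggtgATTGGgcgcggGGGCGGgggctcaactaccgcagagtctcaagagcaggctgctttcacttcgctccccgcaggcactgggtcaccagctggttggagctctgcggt

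The Bcl2l11 window held 1 inverted CCAAT box, starting at position -57 from the transcription start, beside 3 GC boxes. The Bid window held 3 GC boxes and the Bad window 4, and neither of these held a CCAAT box, but the other window listed for Bad held an inverted one at position -48. Both windows listed for Bcl2l11 held a CCAAT box. The Bak1 window held neither motif. Of all 32851 windows of this length in the table, 37.4% held a CCAAT box and 35.7% a GC box. A forkhead motif (GTAAACA on either strand), the element that FOXO factors bind, began at position -227 of the Bcl2l11 window, and 3.65% of all windows held one. The other window listed for Bcl2l11 held none, while a window listed for Bbc3, whose knockout and WT values overlapped, held one at position -167. Of the 13 windows read for 7 of the genes, 6 held a CCAAT box, 9 a GC box, 2 an E-box (CACGTG), 2 a forkhead motif and 2 a p53 half-site, and the last 3 motifs were found in 7.15%, 3.65% and 8.36% of all windows. Several of the 13 belong to the same gene, and some for Bbc3 overlap, so they are not separate observations. G and C made up 53.3% to 78.0% of the bases in the 13 windows, beside a median of 52.7% over all windows. The part of this base content in the motif counts was not tested. Member windows on chromosome 18, where Pmaip1 lies, were left out and Bik had none, so neither gene enters these counts. A match describes the letters in the window and is not a binding site shown by these data.

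Bax and Bak1 encode the effectors that form the pores. Bax (chromosome 7, 45461697 to 45466898, minus strand, GRCm38) stood at 9.79 and 10.17 in knockout replicates 1 and 3, versus 18.48 in WT replicate 4 and 9.97 in WT replicate 5. The knockout values lay on both sides of WT replicate 5 and far below WT replicate 4. The difference of -4.25 (SE 3.35) had a limma adjusted p of 0.826, and the mean of the knockout libraries lay 0.0054 above WT replicate 5. A gene annotated on the same strand, Gm45808, shares 192 bases of exon with Bax, and its value was below 0 in all 4 libraries.

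Bak1 (chromosome 17, 27019810 to 27029009, minus strand, GRCm38) stood at 6.90 and 6.73 in knockout replicates 1 and 3, versus 5.21 and 6.10 in WT replicates 4 and 5. The groups did not overlap, and the gap of 0.63 between them was wider than the 0.17 between the knockout libraries but narrower than the 0.89 between the WT libraries. The group means were 6.82 ± 0.12 in knockout and 5.66 ± 0.63 in WT (SD, n = 2 each). The difference was 1.16 (SE 0.70), with a limma adjusted p of 0.826. Against WT replicate 5 alone it was 0.71, a 1.64-fold higher level, with a limma adjusted p of 0.562. Ggnbp1 lies on the opposite strand and shares 614 bases, 25.5% of the exon length of Bak1, and the labels do not say whether reads were counted by strand. Ggnbp1, looked up after its value was seen, was at 4.79 and 3.90 in knockout cells versus 4.38 and 3.93 in WT cells.

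**Figure D1:**
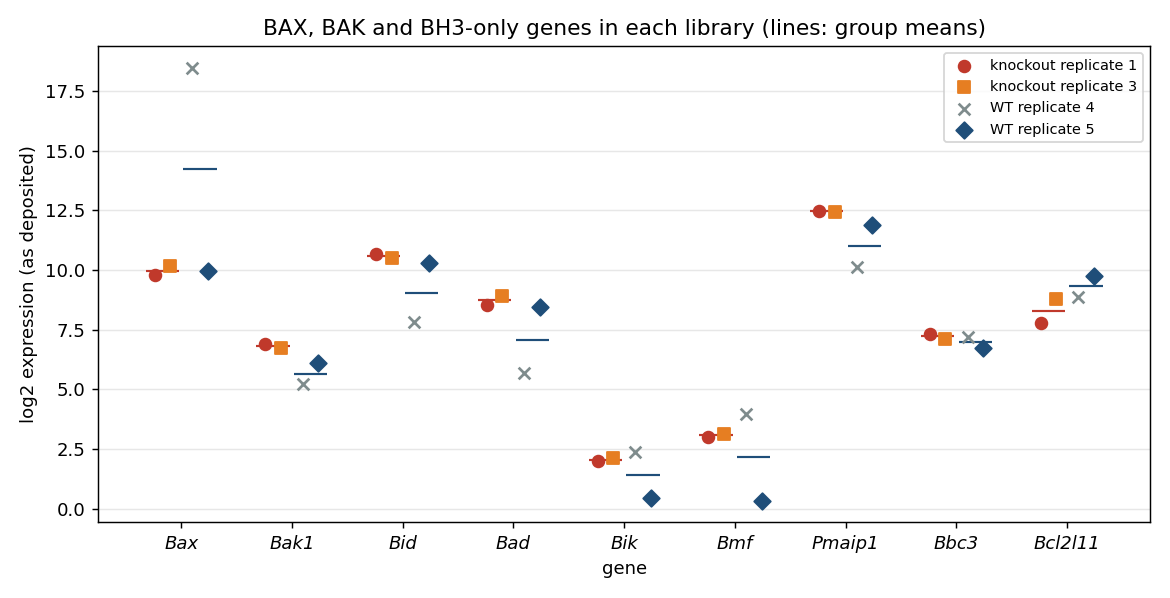
Log2 expression as deposited of the 9 genes, with 1 point per library and a short line at each group's mean (knockout left, WT right). Bak1, Bid, Bad and Pmaip1 lie higher in both knockout libraries and Bcl2l11 lower, and Bax reaches 18.48 in WT replicate 4 alone.

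Bcl2l11 and Bid encode BH3-only proteins that can activate BAX and BAK directly. The BIM gene is a known target of FOXO factors, and BID acts once it is cleaved by caspase-8. Bcl2l11 (chromosome 2, 128126038 to 128162547, plus strand, GRCm38) stood at 7.79 and 8.79 in knockout replicates 1 and 3, versus 8.87 and 9.77 in WT replicates 4 and 5. It was the only one of the 9 genes below both WT values in both knockout libraries, with a gap of 0.075 between the groups and 1.01 between the knockout libraries. The knockout pair differed by less than that in 79.0% of tested genes. The group means were 8.29 ± 0.71 in knockout and 9.32 ± 0.63 in WT (SD, n = 2 each). The difference of -1.03 (SE 0.85) had a limma adjusted p of 0.826. Against WT replicate 5 alone it was -1.48 (SE 0.59), a 2.78-fold lower level, with a limma adjusted p of 0.534.

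Bid (chromosome 6, 120891930 to 120916853, minus strand, GRCm38) stood at 10.67 and 10.50 in knockout replicates 1 and 3, versus 7.80 and 10.29 in WT replicates 4 and 5. Most of the difference of 1.54 (SE 1.21, limma adjusted p = 0.826) lay against WT replicate 4. The knockout mean was 0.30 above WT replicate 5, a 1.23-fold higher level, and the knockout libraries lay 0.17 apart. Bcl2l13, another BCL2 family gene, runs on the opposite strand and shares 628 bases, 17.7% of the exon length of Bid. Bcl2l13 lay on the other side, at 8.61 and 8.21 in knockout cells versus 9.17 and 8.64 in WT cells.

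Pmaip1, Bbc3, Bad, Bik and Bmf encode BH3-only proteins best known for binding pro-survival proteins. NOXA and PUMA, from Pmaip1 and Bbc3, are classic products of p53 target genes, and NOXA binds MCL1 with preference. Pmaip1 (chromosome 18, 66458533 to 66465565, plus strand, GRCm38) stood at 12.48 and 12.44 in knockout replicates 1 and 3, versus 10.12 and 11.87 in WT replicates 4 and 5. Both knockout values lay above both WT values with a gap of 0.57, while the knockout libraries differed by 0.040 and the WT libraries by 1.75. The group means were 12.46 ± 0.028 in knockout and 10.99 ± 1.24 in WT (SD, n = 2 each). The difference of 1.47 (SE 1.71) had a limma adjusted p of 0.833, and against WT replicate 5 alone it was 0.59 (SE 0.19), a 1.51-fold higher level, with a limma adjusted p of 0.495. Pmaip1 stood above 99.3% and 99.2% of tested genes in the knockout libraries, 91.3% in WT replicate 4 and 98.6% in WT replicate 5.

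Bbc3 (chromosome 7, 16308393 to 16318205, plus strand, GRCm38) stood at 7.33 and 7.13 in knockout replicates 1 and 3, versus 7.21 and 6.72 in WT replicates 4 and 5. The groups overlapped. The difference was 0.26 (SE 0.64, limma adjusted p = 0.913), and the knockout mean was 0.51 above WT replicate 5.

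Bad encodes a BH3-only protein that survival signals keep inactive by phosphorylation. Bad (chromosome 19, 6941861 to 6951899, plus strand, GRCm38) stood at 8.54 and 8.92 in knockout replicates 1 and 3, versus 5.66 and 8.45 in WT replicates 4 and 5. The lower knockout value lay only 0.089 above WT replicate 5. The difference was 1.67 (SE 1.13, limma adjusted p = 0.826), and 0.28 against WT replicate 5 alone, a 1.21-fold higher level. Gpr137 on the opposite strand shares 524 bases, 20.5% of the exon length of Bad, and was at 7.29 and 7.54 in knockout cells versus 5.37 and 7.42 in WT cells.

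Bik and Bmf had the lowest values of the 9 genes in every library. Bik (chromosome 15, 83526862 to 83544634, plus strand, GRCm38) stood at 1.99 and 2.105 in knockout replicates 1 and 3, versus 2.39 and 0.45 in WT replicates 4 and 5. Bmf (chromosome 2, 118528757 to 118549687, minus strand, GRCm38), whose product is tied to the cytoskeleton until stress frees it, stood at 3.02 and 3.11 in knockout replicates 1 and 3, versus 3.97 and 0.34 in WT replicates 4 and 5. For both genes the knockout pair lay between the WT values, so the direction turned on which WT library was used. Against WT replicate 5 the differences of Bik and Bmf were 1.60 and 2.73, and against WT replicate 4 they were -0.34 and -0.90. The limma adjusted p over all 4 libraries was 0.859 for Bik and 0.865 for Bmf.

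**Figure D2:**
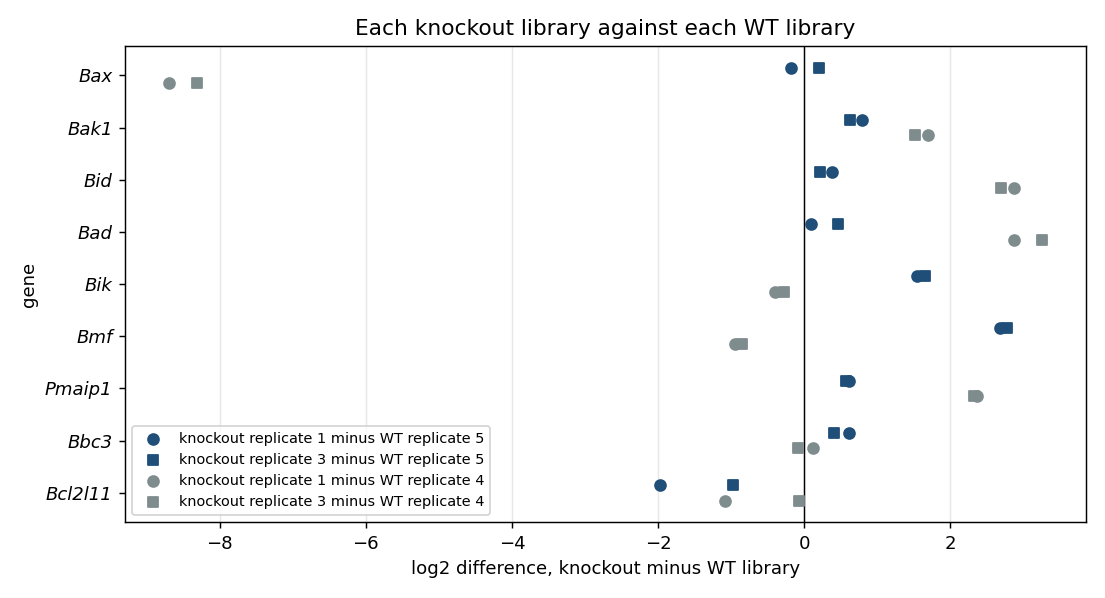
Log2 difference of each knockout library from WT replicate 5 (blue) and from WT replicate 4 (grey) for the 9 genes, with circles for knockout replicate 1 and squares for knockout replicate 3. Bak1, Bid, Bad and Pmaip1 lie right of 0 and Bcl2l11 left of 0 against both WT libraries, while Bax, Bik and Bmf depend on the WT library.

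Relative to WT replicate 5 alone, 7 of the 9 genes had both knockout values higher, 1 lower (Bcl2l11), and Bax values on both sides. Over all tested genes the shares were 41.8% higher and 33.4% lower. The median difference from WT replicate 5 was 0.51 over the 9 genes and 0.07 over all tested genes. Against WT replicate 4 alone, limma called Bax lower (-8.51, adjusted p = 0.0064) and Bid, Bad and Pmaip1 higher (2.78, 3.06 and 2.34, adjusted p = 0.015, 0.025 and 0.017). That setting called 14.2% of all tested genes higher and 14.5% lower, takes the spread from the knockout pair, and assumes that the lone WT library varies like it. Over all alternatives the limma adjusted p of Bak1 ran from 0.082 to 0.9999 and that of Bcl2l11 from 0.497 to 0.9999, and for Bax, Bid, Bad and Pmaip1 the values just given were the lowest and 0.9999 the highest.

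Levels of different genes were compared after subtracting the log2 of the exon length in kilobases (GENCODE M21). How the deposited values were normalized is not given in the sources used here, so they may already be scaled by length, and the order below Pmaip1 turns on this step. As deposited, Bid came before Bax in both knockout libraries and in WT replicate 5, and Bcl2l11 before Bak1 in all 4 libraries. After the subtraction, Pmaip1 had the highest level per kilobase of the 9 genes in both knockout libraries, at 11.03 and 10.99, and in WT replicate 5, at 10.42. Bax followed in these 3 libraries, at 9.13 and 9.51 in knockout and 9.32 in WT replicate 5, and in WT replicate 4 it came before Pmaip1, at 17.83 against 8.67. Bid and Bad were next in the knockout libraries and WT replicate 5. Bcl2l11 took place 7 and place 6 of the 9 in the knockout libraries, at 4.78 and 5.79 per kilobase, and place 5 in both WT libraries, at 5.86 and 6.76. Bak1 and Bcl2l11 were neighbours in the knockout libraries, and their per-kilobase levels there, 5.63 and 5.47 for Bak1 and 4.78 and 5.79 for Bcl2l11, overlapped. Bik and Bmf came last in all 4 libraries.

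The members differed in how close the knockout replicates were. The knockout pair lay within 0.040 to 0.38 of each other for 8 of the genes, and 1.01 apart for Bcl2l11, beside a median of 0.46 over all tested genes. The WT pair lay 0.49 apart for Bbc3 and 8.51 apart for Bax, with a median of 1.94 over the 9 genes and 1.40 over all tested genes.

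The authors' deposited table called 0 of the 9 genes at an adjusted p under 0.05, while over the tested genes it called 3.94% with a negative and 0.156% with a positive fold change. Its fold changes carry a heading of WT against cKO, but they are read here as knockout over WT, since Ybx1 has -9.50 there and most genes share the sign of knockout minus WT. Read so, they pointed the other way from the sample columns for 3 of the 9 genes. In the authors' deposited table Pmaip1 had a log2 fold change of -4.89 (p = 0.0165, adjusted p = 0.124) and Bid one of -3.26 (adjusted p = 0.278), although both lay higher in both knockout libraries. The third gene was Bik, at -0.35. Such an opposite sign was found for 15.7% of 17185 tested genes with a deposited fold change, and for 11.2% of the 3000 genes with both knockout values above both WT values. For Bax, Bak1, Bad, Bbc3, Bmf and Bcl2l11 the authors' deposited table gave -7.07, 1.4997, 0.79, 0.98, 0.24 and -1.16, with the same sign as the sample columns. The cause of the opposite signs was not tested.

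**Figure D3:**
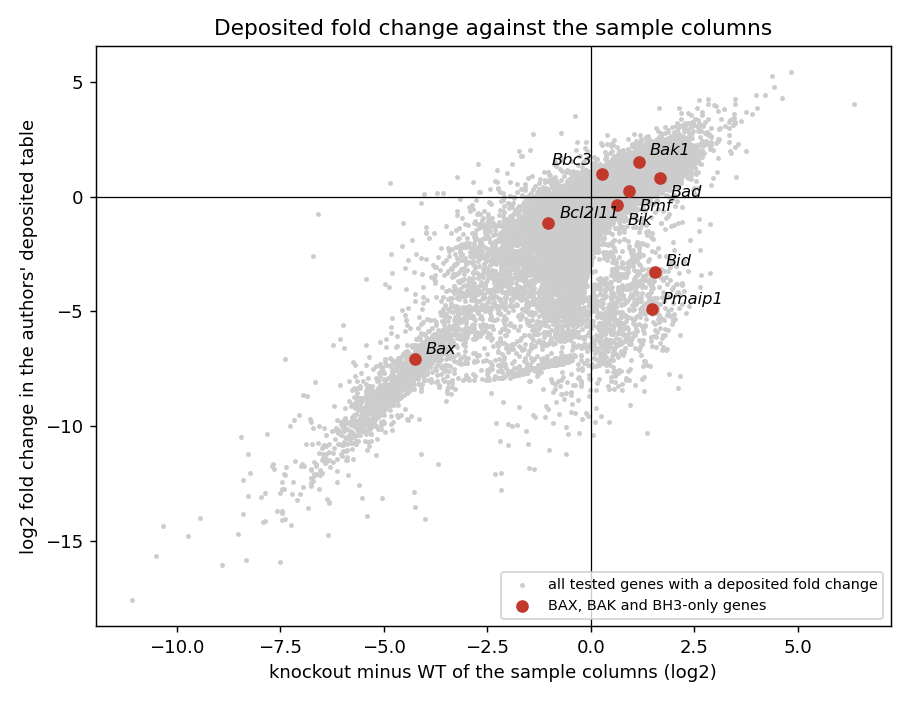
Log2 fold change in the authors' deposited table against knockout minus WT of the sample columns, for the 9 genes (red, named) and all tested genes with a deposited fold change (grey). Pmaip1, Bid and Bik lie right of 0 and below 0, where the signs disagree, and the other 6 genes lie where they agree.

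Death genes were also set against the pro-survival partners they bind, as a log2 difference within each library, which a constant scaling of a library leaves as it is. Of 7 such pairs, 3 lay higher in both knockout libraries, 2 lower, and 2 overlapped. With Mcl1 subtracted in the same way, 21.8% of the other tested genes lay above both WT values in both knockout libraries and 6.77% below. Pmaip1 minus Mcl1 was 3.19 and 2.76 in the knockout libraries, versus 1.69 and 1.35 in WT replicates 4 and 5. The difference was thus 1.46 higher in knockout than in WT, and the 4 values did not overlap between the groups. Bak1 minus Mcl1 was -2.39 and -2.94 in knockout cells versus -3.22 and -4.41 in WT cells, again higher in both knockout libraries. Bcl2l11 minus Mcl1 was -1.50 and -0.89 in knockout cells versus 0.44 and -0.75 in WT cells, lower in both knockout libraries. These pairs share the values of Mcl1, which was at 9.29 and 9.68 in knockout cells versus 8.43 and 10.52 in WT cells, and whose difference of 0.0087 had a limma adjusted p of 0.999.

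Bax minus Bcl2 was 6.48 and 8.22 in knockout cells versus 15.44 and 10.24 in WT cells, lower in both knockout libraries, as 27.6% of the other tested genes were after subtracting Bcl2, with 0.601% higher. The groups overlapped for the other pair with Bcl2, where Bcl2l11 minus Bcl2 was 4.48 and 6.85 in knockout cells versus 5.83 and 10.03 in WT cells. Bcl2, a guardian bound by BAX and BIM, was itself at 3.31 and 1.95 in knockout cells versus 3.04 and -0.26 in WT cells, with a difference of 1.24 (SE 1.33, limma adjusted p = 0.829). The value in WT replicate 5 is low, at rank 4.02% of tested genes. Bax was at 9.97 in that library, between its knockout values of 9.79 and 10.17, and at 18.48 in WT replicate 4. Bad minus Bcl2l1 was -3.06 and -2.46 in knockout cells versus -13.46 and -3.26 in WT cells, higher in both knockout libraries, as 51.1% of the other tested genes were after subtracting Bcl2l1, with 1.49% lower. The wide WT range came with Bcl2l1, the BCL-xL gene, at 19.13 in WT replicate 4. Bbc3 minus Mcl1 overlapped between the groups, at -1.96 and -2.55 in knockout cells versus -1.22 and -3.80 in WT cells. No p is attached to these 7 pairs, since 2 libraries a group cannot give an exact p below 0.333.

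**Figure D4:**
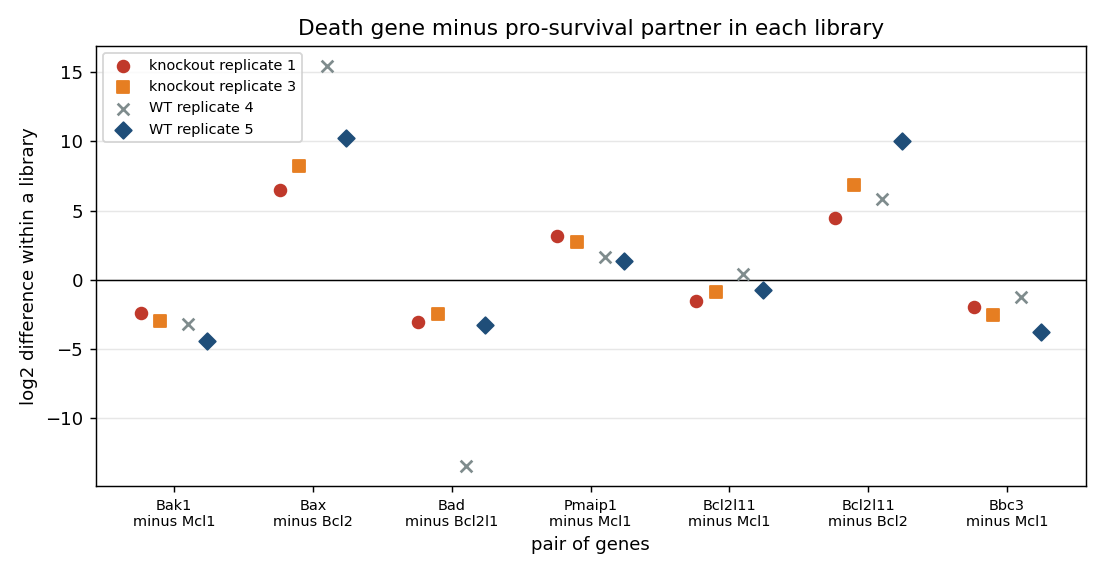
Log2 difference of a death gene minus a pro-survival partner within each library, for 7 pairs, with knockout libraries left of WT libraries. Pmaip1 minus Mcl1, Bak1 minus Mcl1 and Bad minus Bcl2l1 lie higher in both knockout libraries, and Bcl2l11 minus Mcl1 and Bax minus Bcl2 lower.

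The other genes of the pathway were read from 5 lists with 48 genes, of which limma called 0, and 1 had an unadjusted p under 0.05 (Perp, a p53 target, which like the other genes given here without values was named after its values were seen). Over all tested genes 17.3% exceeded the WT pair in each knockout library and 18.8% stayed under it. Among 7 tested pro-survival genes of 8, 1, Bcl2a1a, exceeded the WT pair in each knockout library and 1, Bcl2l1, stayed under it. Bcl2l2, which encodes the guardian BCL-w, was at 2.63 and 4.64 in knockout cells versus 4.20 and 2.26 in WT cells, and Bcl2a1b at 6.86 and 6.98 in knockout cells versus 5.49 and 6.87 in WT cells. Bcl2a1a, whose knockout values lay only 0.022 above WT, and Bcl2a1b belong to a set of near-identical gene copies among which reads could be split, so the levels of both are uncertain. Of the relatives of the effectors and of the BH3-only proteins, Bok, an effector related to BAX and BAK, was at -0.089 and -0.10 in knockout cells versus 1.67 and -0.090 in WT cells, and Hrk, a BH3-only gene of neurons, was between -1.74 and -1.67 in all libraries. Both failed the filter on low values. Of the 5 tested genes of that list of 8, 0 lay above and 1, Bcl2l13, lay below.

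Of 10 genes that act at or after the mitochondrial step, 5 exceeded the WT pair in each knockout library and 0 stayed under it. Over all tested genes these shares were 17.3% and 18.8%. The median difference of the 10 genes was 0.72, or 0.38 from WT replicate 5 alone, beside -0.09 and 0.07 over all tested genes. Vdac2, whose outer membrane channel binds BAK, was at 11.24 and 11.00 in knockout cells versus 8.59 and 10.93 in WT cells. Diablo, which encodes an inhibitor of the IAP proteins, was at 5.57 and 5.37 in knockout cells versus 4.89 and 4.82 in WT cells, with a difference of 0.61 (SE 0.68, limma adjusted p = 0.831). Apaf1, the scaffold of the apoptosome, was at 7.06 and 6.48 in knockout cells versus 5.19 and 6.69 in WT cells. The initiator caspase gene Casp9 was at 5.41 and 7.49 in knockout cells versus 7.29 and 6.82 in WT cells. Cycs, the cytochrome c gene, was at 11.97 and 12.36 in knockout cells versus 18.50 and 11.82 in WT cells, and Xiap, a caspase inhibitor gene, at 7.46 and 7.14 in knockout cells versus 12.33 and 6.52 in WT cells, both highest in WT replicate 4.

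Of 9 tested regulators of BH3-only gene transcription, from a list of 10, 0 exceeded the WT pair in each knockout library and 2, Foxo1 and E2f1, stayed under it. Their median difference was 0.59, or -0.36 from WT replicate 5 alone, beside -0.09 and 0.07 over all tested genes. Trp53, the p53 gene, was at 9.75 and 9.61 in knockout cells versus 8.38 and 9.66 in WT cells. Foxo3, a forkhead factor that drives BIM, was at 6.77 and 7.10 in knockout cells versus 5.31 and 7.37 in WT cells. Its knockout values thus lay above WT replicate 4 and below WT replicate 5. Ddit3, the stress factor CHOP, was at 8.34 and 8.48 in knockout cells versus 19.53 and 7.91 in WT cells, and Mdm2, the p53 inhibitor gene, at 8.93 and 8.53 in knockout cells versus 5.74 and 9.57 in WT cells.

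Of 11 tested p53 target genes outside the family, 2 (Ccng1 and Sesn1) exceeded the WT pair in each knockout library and 2 (Cdkn1a and Perp) stayed under it. Their median difference was -0.15, beside -0.09 over all tested genes. Cdkn1a, the p21 gene, was at 11.64 in both knockout libraries against 21.58 and 12.41 in WT. In the authors' deposited table its log2 fold change was -8.76 and passed the threshold, and Pmaip1, at -4.89 and not called, had the same sign there. Of the 11 tested outside the family, 8 had a positive and 3 a negative fold change there, and only Cdkn1a was called. Among all tested genes with a deposited fold change, it was positive for 6927 and negative for 10258. Bbc3 had a fold change of 0.98 there and was not called.

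Genes most like a member over the 4 libraries were found by the Euclidean distance between values centred on each gene's mean, among 8524 named genes with a mean of at least 5. Closest to Bax were Ndufab1 and Ostf1, at distances of 0.11 and 0.12, with 17.93 and 20.04 in WT replicate 4. Closest to Bak1 were Pafah2 and Gga2, at 0.063 and 0.068, and in WT replicate 4 these stood at 5.26 and 5.31. Closest to Pmaip1 were Fuk and Trafd1, at 0.045 and 0.053, with 5.33 and 5.48 in WT replicate 4. Bcl2l11 had the least common pattern of the 4, with Tbc1d14 and Tmem201 at 0.23 and 0.34 and 17 genes within a distance of 0.5, against 87 for Bax, 525 for Bak1 and 649 for Pmaip1.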

How the data were processed

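RNA was sequenced after selection with oligo dT beads, per the labels' protocols, in 2 Ybx1 knockout and 2 WT libraries. CASAVA, featureCounts, DESeq2, HISAT2 2.1.0 and the build GRCm38 appear in the submitters' processing notes, which give no role for them here. The authors deposited 1 table with log2 expression values per gene and library, whose normalization is not given in the sources used here, and with their own log2 fold change, p-value and adjusted p-value. Depth is unknown.

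Differences were fitted with limma (3.58.1, R 4.3.3) to the deposited log2 values, with a trend of variance on mean and without a pseudocount, for genes with a value of at least 0 in at least 2 libraries. Rows with the same value in every library, 30280 of them at 0, were left out. Benjamini-Hochberg adjustment ran over all tested genes, and an adjusted p under 0.05 counts as called. SE is limma's moderated standard error. The step was tested on simulated data with a small spread and no deviant library. That test cannot show how the fit behaves on libraries as unlike as these WT libraries. Coordinates and exon lengths came from GENCODE M21 and promoter windows from RefSeq. The 9 genes, the 5 pathway lists, the 8 marker lists and the rule for named genes (18 pathway genes, and the 2 genes nearest to each of 4 members) were chosen with earlier results of these data known, and a few genes of these lists are not reported here. Differences from WT replicate 5, ranks within libraries, values within a title tag and the shares after subtracting a partner gene were chosen after the values were seen. The alternatives were other filters, pseudocounts, scalings, no trend and leaving out each library.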

Additional observations from a re-analysis of the deposited data

How the results depend on the processing

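Under 11 alternatives, limma called 0 of the 9 genes and 0 genes in all, except where a library was left out. Without single libraries, the count over all genes ranged from 0 to 4960, with 26 without knockout replicate 1 and 88 without knockout replicate 3. The count of the 9 genes called ranged from 0 to 4, the 4 being Bax, Bid, Bad and Pmaip1 without WT replicate 5. The number with both knockout values above WT ranged from 4 to 7 and the number below from 1 to 4. With all libraries, 17.3% of all tested genes lay above and 18.8% below. The 7 above came without WT replicate 4, where 41.8% of all tested genes lay above. The 4 below came without WT replicate 5, and the share of all tested genes below WT replicate 4 alone was not computed. Their median difference ranged from 0.019 to 0.96. No paired analysis was possible because the groups share no replicate number. The title tag RNA-seq2 marks knockout replicate 3 alone, so leaving that library out is also the comparison within the other tag.

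Quantile normalization moved the median of all tested genes by 0.26, median centring by -0.14, and the filter of log2 5, which left out Bik and Bmf, by 0.69. After quantile normalization the direction turned for Bbc3 (-0.34), Bcl2l1 (0.30), Mcl1 (-1.29), Bcl2a1b (-0.061), Cycs (1.05) and Foxo3 (-0.040), and after median centring for Mcl1 (-0.13). Leaving out a library turned the direction of Bax (-8.51 to 0.0054), Bik (-0.34 to 1.60), Bmf (-0.90 to 2.73), Bcl2 (-0.41 to 2.89), Bcl2l2 (-0.60 to 1.41), Mcl1 (-1.03 to 1.05), Cycs (-6.33 to 0.35), Casp9 (-1.65 to 0.44), Xiap (-5.03 to 0.78), Foxo3 (-0.44 to 1.62), Ddit3 (-11.12 to 0.50) and Mdm2 (-0.84 to 2.99). The cause was not tested. Bak1, Bid, Bad and Pmaip1 stayed higher and Bcl2l11 lower in knockout under every alternative, where Bak1 ranged from 0.54 to 1.61 and Bcl2l11 from -1.62 to -0.52. The groups of these genes did not overlap, so leaving out a library, a filter, a pseudocount or dropping the trend could not turn their direction. Only quantile normalization and median centring could have done so. Without WT replicate 4 the differences of Bid and Bad fell to 0.30 and 0.28. Without counts, it could not be told how far low values such as those of Bik and Bmf are limited by depth.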
